A study of Mus musculus with 4 samples.

Results

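The genes described here make, move, store and sense cholesterol. They are 29 genes of the 32285 in the count tables, chosen by symbol from their known roles with earlier results of these data known. Of them, 7 encode enzymes that carry acetyl-CoA through mevalonate to isoprenoids and 11 encode enzymes that carry squalene to cholesterol. A further 4 sense sterols and control the pathway, and 7 move cholesterol inside or out of the cell, store it as esters or release it from them. Every member had UMIs in all 8 sections, the lowest being 64 UMIs of Lipe, and all 29 passed the filter on low counts in each test between ages of whole sections.

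In most cells cholesterol synthesis answers to sterol level: when membranes run short, SCAP escorts the transcription factor SREBP-2 out of the endoplasmic reticulum and the enzyme genes rise together, and when sterols are plentiful INSIG proteins hold it back. Ovarian luteal cells, which form the corpus luteum after ovulation, spend large amounts of cholesterol on progesterone. They take it from lipoproteins, from stored esters and from their own synthesis. StAR brings cholesterol into the mitochondrion, where Cyp11a1 cuts its side chain.

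RNA leaving frozen ovary sections of outbred CD-1 mice was caught on a grid of barcoded spots (10x Genomics Visium), and each spot holds several cells. Young females were 3 to 4 months old and aged females 15 to 16 months old, aged naturally, with 4 animals per age and 1 section from each. There were 4 capture areas, and a young and an aged section lay on each and so shared a library. Sections are numbered here by their area. The comparisons ask how the members differ with age and where in the section they are high.

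The tables held 4191 spots over tissue. Unique molecule (UMI) totals ran from 9702600 to 21619232 in young sections and from 2777948 to 9506517 in aged sections. The median spot had 14988.5 to 28120 UMIs in young sections and 8779 to 14927.5 in aged ones. Area 3 stood apart from the rest in oocyte markers. The share of spots with a UMI of an oocyte marker was 84.2, 61.2 and 59.97% in young sections 1, 2 and 4 and 32.8, 20.2 and 28.6% in their aged partners, but 23.8% in young section 3 and 61.5% in aged section 3. Summed macrophage markers also ran against the other areas, at 1189 counts per 1000000 UMIs in young section 3 and 412 in aged section 3. In areas 1, 2 and 4 the aged section had more of them. In number of spots, depth and mitochondrial share area 3 ran as the other areas did. The aged section of every area had fewer spots, a lower median of UMIs and a higher mitochondrial share of UMIs. In area 3 these were 257 spots, 8779 UMIs and 2.96% in the aged section, against 542, 14988.5 and 1.10% in the young one. Sections were told apart by the side that the labels give. An image turned in area 3 would exchange its ages, which the files cannot show. Results that rest on age are therefore given with and without area 3. Adipocyte markers were highest in aged section 3, where they summed to 81.4 CPM (counts per 1000000 UMIs of the section), against 3.84 to 13.8 CPM in young sections. Adipoq, which marks adipocytes, was at 7.20 CPM there and at 0 in young sections 2 and 4 and in aged section 1. Markers of every ovarian type listed were detected at each age, but Amh, which growing follicles make, was at 0 in young section 3 and aged section 1.

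Promoter letters are shown for 4 members that the results turn on: Hmgcs1, the enzyme that makes HMG-CoA, Hsd17b7 and Insig1, which had the smallest p of their roles between ages, and Abca1, the cholesterol exporter, which was lower in the luteal range described below while most synthesis genes were higher. Each line gives the 250 bases before the transcription start, 5′ to 3′ on the gene's strand, from RefSeq (GRCm38.p6). Capitals mark, on either strand, a classical sterol regulatory element (TCACNCCAC), a CCAAT box (CCAAT or ATTGG), a GC box (GGGCGG or CCGCCC) and an E-box (CACGTG).
Hmgcs1 (chr13:119690101-119690350, plus strand): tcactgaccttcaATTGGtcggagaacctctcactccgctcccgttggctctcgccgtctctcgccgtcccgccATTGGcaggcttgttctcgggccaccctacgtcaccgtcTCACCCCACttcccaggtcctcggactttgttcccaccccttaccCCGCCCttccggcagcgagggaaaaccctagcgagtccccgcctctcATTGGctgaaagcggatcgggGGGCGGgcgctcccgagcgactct
Hsd17b7 (chr1:169969206-169969455, minus strand): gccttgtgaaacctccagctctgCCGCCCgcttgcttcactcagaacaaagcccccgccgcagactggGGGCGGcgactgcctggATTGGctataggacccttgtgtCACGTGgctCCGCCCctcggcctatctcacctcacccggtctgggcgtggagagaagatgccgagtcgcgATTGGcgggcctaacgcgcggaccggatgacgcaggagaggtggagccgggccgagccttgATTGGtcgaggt
Insig1 (chr5:28071162-28071411, plus strand): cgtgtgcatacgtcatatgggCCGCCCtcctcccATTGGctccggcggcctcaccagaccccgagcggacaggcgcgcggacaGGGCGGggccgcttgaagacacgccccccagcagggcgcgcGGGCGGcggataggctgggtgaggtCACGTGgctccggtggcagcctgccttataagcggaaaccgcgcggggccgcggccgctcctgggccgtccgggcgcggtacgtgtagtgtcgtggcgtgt
Abca1 (chr4:53159896-53160145, minus strand): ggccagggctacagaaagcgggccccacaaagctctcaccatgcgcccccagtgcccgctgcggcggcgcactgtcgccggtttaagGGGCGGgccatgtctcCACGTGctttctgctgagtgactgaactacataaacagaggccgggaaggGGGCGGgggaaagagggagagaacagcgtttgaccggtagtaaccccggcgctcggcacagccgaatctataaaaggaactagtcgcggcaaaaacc
Of the members, 24 had an entry. Fdps, Npc1, Sqle, Fdft1 and Stard4 had none. Among the 24, counting any listed start, the CCAAT box was in 20 (83.3%, against 37.5% of 27025 genes) and the GC box in 21 (87.5% against 35.4%). The E-box was in 7 of the 24 (29.2% against 6.86%), among them Hsd17b7, Insig1 and Abca1. The sterol regulatory element in this strict spelling was in Hmgcs1 alone among the 24 (4.17% against 1.22%). Hmgcs1 and Hsd17b7 each held 3 CCAAT boxes in this window, and Abca1 held none. These are matches of letters, with no binding measured.

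Across whole sections, the level of the synthesis genes varied widely between sections of an age, and the ages overlapped. Summed over the 18 synthesis genes, young sections 1 to 4 were at 1820, 2715, 6607 and 1886 CPM, and aged sections 1 to 4 at 4886, 4473, 2374 and 10478 CPM. Young section 3 was the highest young section and aged section 3 the lowest aged one, and these 2 made the overlap between the ages. The mean was 3257 ± 2271 CPM over young sections, against 5553 ± 3463 CPM in aged ones (SD, n = 4 per age). In areas 1, 2 and 4 the aged section was higher than its young partner by this sum, and in area 3 it was lower.

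**Figure D1:**
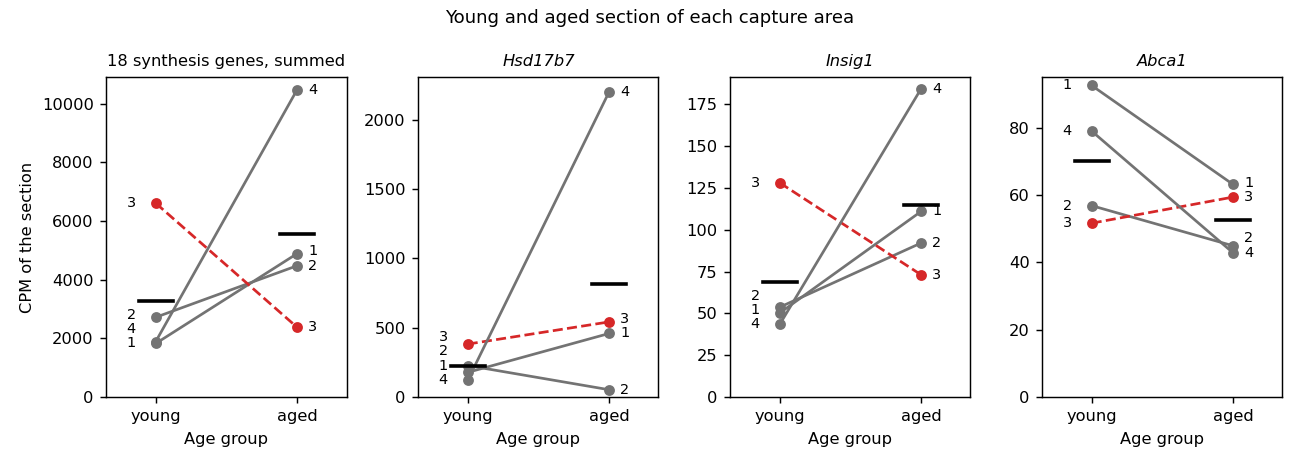
CPM of the summed 18 synthesis genes and of Hsd17b7, Insig1 and Abca1 in the young and aged section of each capture area (points, numbered by area and joined within it; area 3 is dashed and red; bars are the mean of 4 sections). The summed synthesis genes were higher in the aged section of areas 1, 2 and 4 and lower in that of area 3.

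No member passed the age test, and neither did any other gene. By edgeR's quasi-likelihood test with Benjamini-Hochberg adjustment over 14044 genes, 0 of 29 members and 0 genes in all were called (0% of genes tested). The lowest adjusted p of a member was 1.00. At an unadjusted p under 0.05 stood 0 of 29 members and 392 genes (2.79%). DESeq2 called 6 genes (0.0264%), none a member, and 3 members had an unadjusted p under 0.05 there (2.73% of genes). Log2 fold changes, aged over young, were above 0 for 27 of 29 members and for 18 of 18 synthesis genes, with a median of 0.69 for members and 0.77 for synthesis genes, while 52.5% of all genes were above 0, with a median of 0.01. Young and aged sections overlapped for every member, and 1.38% of all genes had groups that did not overlap. In bulk sums of a section, fewer cells of a type and less RNA per cell cannot be told apart.

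Markers of cell types followed the synthesis genes in some sections and not in others. The 6 luteal markers, all detected at each age, summed to 8286, 6542, 13908 and 12716 CPM in young sections 1 to 4 and to 6023, 8351, 7166 and 19548 CPM in aged sections 1 to 4. They were highest in the section of each age where synthesis was highest, young section 3 and aged section 4. Young section 4 had nearly as much with low synthesis, and aged section 1 had the lowest luteal sum with the second highest synthesis of its age. Most of the sum was Akr1c18 and Sfrp4, at 2033 and 2333 CPM in aged section 1 and 10137 and 7205 CPM in aged section 4. Single markers differed. Lhcgr was highest of all sections in aged section 1, at 722 CPM, and at 210 CPM in young section 4. Parm1, Ptgfr and Akr1c18 were lowest of all sections in aged section 1, and Prlr and Sfrp4 lay between. Granulosa markers summed to 161 to 487 CPM in young sections, against 149 to 1517 CPM in aged ones. Theca markers summed to 726 to 1583 and 551 to 1204 CPM. Their part in the age values was not tested.

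Without area 3 the same test gave larger differences. The median log2 fold change of the members was then 1.41 and that of the synthesis genes 1.62. At an unadjusted p under 0.05 stood 22 of 29 members, 21 higher and Abca1 lower, against 1261 of 14134 genes (8.92%). No gene was called after adjustment, the lowest adjusted p of a member being 0.122 (edgeR). In 18 of 29 members every aged section was above every young one, which held for 4.39% of genes, and in 0 members every aged section was below. In fits that kept area 3 and left out a single section, the members' median was 0.30 without aged section 4, with 0 of 29 at an unadjusted p under 0.05 (2.06% of genes). It was 1.13 without young section 3, with 15 of 29 (4.79%).

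**Figure D2:**
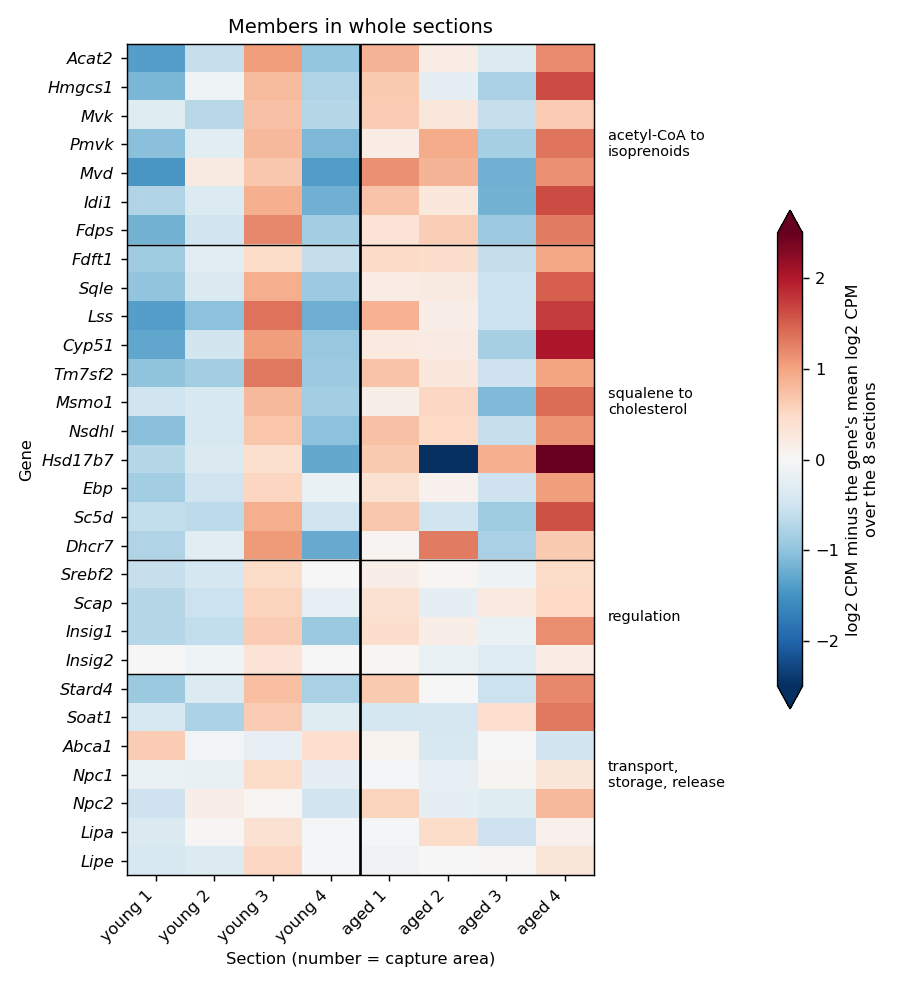
Log2 CPM of each of the 29 members in each section, minus the gene's own mean over the 8 sections (rows, grouped by role; columns, sections by age and capture area; colours beyond 2.5 are drawn as 2.5). Young section 3 was the highest young section for 27 of 29 members and aged section 4 the highest aged section for 24.

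Among the enzymes from acetyl-CoA to isoprenoids, the age values were smallest in p for Pmvk and Mvd, which act one after the other in the mevalonate pathway. Pmvk, phosphomevalonate kinase (chr3:89454541-89469013 in mm10, GENCODE M21, as are all positions here), was at 36.2, 62.1, 130.7 and 34.4 CPM in young sections 1 to 4 and at 84.7, 141.6, 42.1 and 189.3 CPM in aged sections 1 to 4. Only young section 3 and aged section 3 broke the separation of the ages. Its log2 fold change was 0.91 ± 0.53 (± SE, n = 4 per age, unadjusted p 0.12 in edgeR), and 1.67 ± 0.38 without area 3. Mvd, which makes isopentenyl diphosphate (chr8:122433601-122443422), was at 31.1, 99.7, 135.4 and 32.4 CPM in young sections, against 187.7, 153.9, 36.7 and 187.5 CPM in aged sections. The overlap again came from area 3, where the young section was above the aged one. Mvd had a log2 fold change of 1.01 ± 0.61 (edgeR, with its SE, n = 4 per age), and 1.68 ± 0.49 without area 3.

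Idi1, the isomerase of the pathway (chr13:8885501-8892451), was at 72.5, 96.1, 226.7 and 53.3 CPM in young sections, against 201.0, 147.7, 53.6 and 377.1 CPM in aged sections. Fdps, which makes farnesyl diphosphate (chr3:89093588-89101959), was at 337.4, 542.3, 1752 and 421.1 CPM in young sections, against 975.8, 1178, 408.2 and 1849 CPM in aged sections. In each of these genes young section 3 stood within the range of aged sections 1, 2 and 4 and aged section 3 within that of young sections 1, 2 and 4. Hmgcs1 (chr13:119690379-119708260) was at 223.2, 457.0, 854.2 and 290.9 CPM in young sections, against 771.4, 414.0, 282.9 and 1522 CPM in aged sections, and there aged section 2 was also below its young partner. An exon of Hmgcs1 overlaps Gm48342 on the opposite strand, so its count may hold reads of that gene. Acat2, which joins acetyl-CoA units, and Mvk, mevalonate kinase, had log2 fold changes of 0.82 ± 0.51 and 0.53 ± 0.36 (edgeR).

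Among the enzymes from squalene to cholesterol, Hsd17b7 varied most. It reduces a sterol ketone in cholesterol synthesis and also converts oestrone to oestradiol in luteal cells (chr1:169949535-169969241). It was at 176.3, 226.0, 380.8 and 119.5 CPM in young sections, against 457.4, 51.1, 541.0 and 2202 CPM in aged sections. Aged section 2 was the lowest of all 8 sections and aged section 4 the highest. Its log2 fold change was 1.88 ± 0.85 (edgeR, SE, n = 4 per age, unadjusted p 0.0538) and 2.35 ± 1.07 without area 3. Unlike the summed synthesis genes, Hsd17b7 was higher in the aged section of area 3 and lower in that of area 2.

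Nsdhl, which takes part in removing methyl groups from the sterol ring (chrX:72918557-72958514), was at 36.1, 56.0, 120.0 and 36.2 CPM in young sections, against 123.8, 104.7, 50.04 and 161.5 CPM in aged sections. Young section 3 lay among the aged sections and aged section 3 among the young ones. Its log2 fold change was 0.92 ± 0.45 (edgeR, with its SE, n = 4 per age), and 1.61 ± 0.26 without area 3. Dhcr7, the last enzyme of one branch to cholesterol (chr7:143823145-143848410), was at 158.1, 218.1, 558.8 and 110.6 CPM in young sections, against 279.3, 657.2, 151.9 and 415.4 CPM in aged sections. Msmo1, a sterol methyl oxidase (chr8:64718139-64733792), was at 248.9, 269.7, 613.8 and 192.0 CPM in young sections, against 388.3, 505.8, 163.8 and 925.7 CPM in aged sections. Both genes followed the order of the other enzymes, with the ages apart in areas 1, 2 and 4 and crossed in area 3. The other 7 genes of this role, Fdft1, Sqle, Lss, Cyp51, Tm7sf2, Ebp and Sc5d, had log2 fold changes of 0.56 to 1.02, and Tm7sf2 had the smallest p of all members without area 3 (log2 fold change 1.63 ± 0.18, adjusted p 0.122 in edgeR), though its exons overlap those of Vps51. Exons of Fdft1, Cyp51 and Lss overlap genes on the opposite strand.

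Insig1 and Insig2 encode related proteins that hold SCAP and SREBP in the endoplasmic reticulum, Insig1 itself being a target of SREBP. Insig1 (chr5:28071363-28078662) was at 50.2, 53.7, 128.1 and 43.4 CPM in young sections, against 110.9, 92.0, 73.1 and 184.3 CPM in aged sections. Insig2 (chr1:121304353-121332589) was at 44.97, 41.6, 56.7 and 44.6 CPM in young sections, against 46.0, 39.8, 35.6 and 50.8 CPM in aged sections. Insig1 spread widely between sections and followed the enzymes, while Insig2 stayed within a narrow band at both ages. Their log2 fold changes were 0.82 ± 0.38 and −0.08 ± 0.16 (edgeR, with its SE, n = 4 per age), and 1.41 ± 0.26 and 0.09 ± 0.12 without area 3. Scap (chr9:110333288-110384950) was at 136.3, 155.8, 331.8 and 196.0 CPM in young sections, against 291.2, 190.8, 266.0 and 319.2 CPM in aged sections. Young section 3 was the highest section, and all aged sections but the second were above young section 4. Srebf2, which encodes SREBP-2, had a log2 fold change of 0.29 ± 0.23 (edgeR).

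Genes of transport, storage and release had a median log2 fold change of 0.14 between ages, against 0.77 for the synthesis genes. Stard4, which carries cholesterol between membranes and is itself sterol-regulated, was at 18.9, 28.4, 60.8 and 20.5 CPM in young sections, against 56.3, 36.2, 24.8 and 82.6 CPM in aged sections, the order of the enzymes. Abca1, which exports cholesterol to apolipoproteins (chr4:53030787-53159895), was at 92.6, 56.8, 51.6 and 79.0 CPM in young sections, against 63.2, 44.9, 59.4 and 42.8 CPM in aged sections. It was the member with the lowest log2 fold change, −0.41 ± 0.22 (edgeR, with its SE, n = 4 per age), and −0.56 ± 0.20 without area 3, and it was lower in the aged section of 3 of 4 areas. Lipe, hormone-sensitive lipase, which frees cholesterol from its esters (chr7:25379527-25398710), was at 17.1, 17.8, 32.6 and 22.2 CPM in young sections, against 21.3, 22.8, 23.0 and 27.8 CPM in aged sections, so that the aged sections all lay within the range of the young ones. Exons of Lipe and Npc1 overlap genes on the opposite strand. Soat1, which makes the esters, Npc2 and Npc1, which pass cholesterol out of the lysosome, and Lipa, the lysosomal esterase, had log2 fold changes of 0.58, 0.47, 0.08 and 0.09.

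Of 44 other genes of the pathway and its neighbours, 0 were called between ages (edgeR), with a median log2 fold change of 0.08. The desaturases Scd1 and Scd2 had the smallest p. Scd1 was at 38.1, 58.7, 88.3 and 52.1 CPM in young sections, against 85.9, 147.2, 49.7 and 299.2 CPM in aged sections. The log2 fold change of Scd1 was 1.38 ± 0.52 (unadjusted p 0.0246 in edgeR). Scd2 had a log2 fold change of 0.62 ± 0.27 (unadjusted p 0.0438 in edgeR). The 6 genes of side chain cleavage and first steroids, by contrast, had a median of −0.02.

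Within a section spots differed in synthesis transcripts. The median spot held 12.3 to 38.1 synthesis UMIs per 10000 UMIs, depending on the section, and the 90th percentile ran from 27.2 in young section 4 to 160 in aged section 4. To place the high spots, spots were scored by marker lists that hold no member, and the top 15% of spots with at least 500 UMIs by each list form a range. A range is a stretch of a score and not a cell type. Of the spots in the luteal range (626 in all), 23 to 178 fell in each of 7 sections. Aged section 1 had 14 and was left out of that comparison. Counts were summed inside and outside a range in each section, and the pair of sums was compared within sections.

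**Figure D3:**
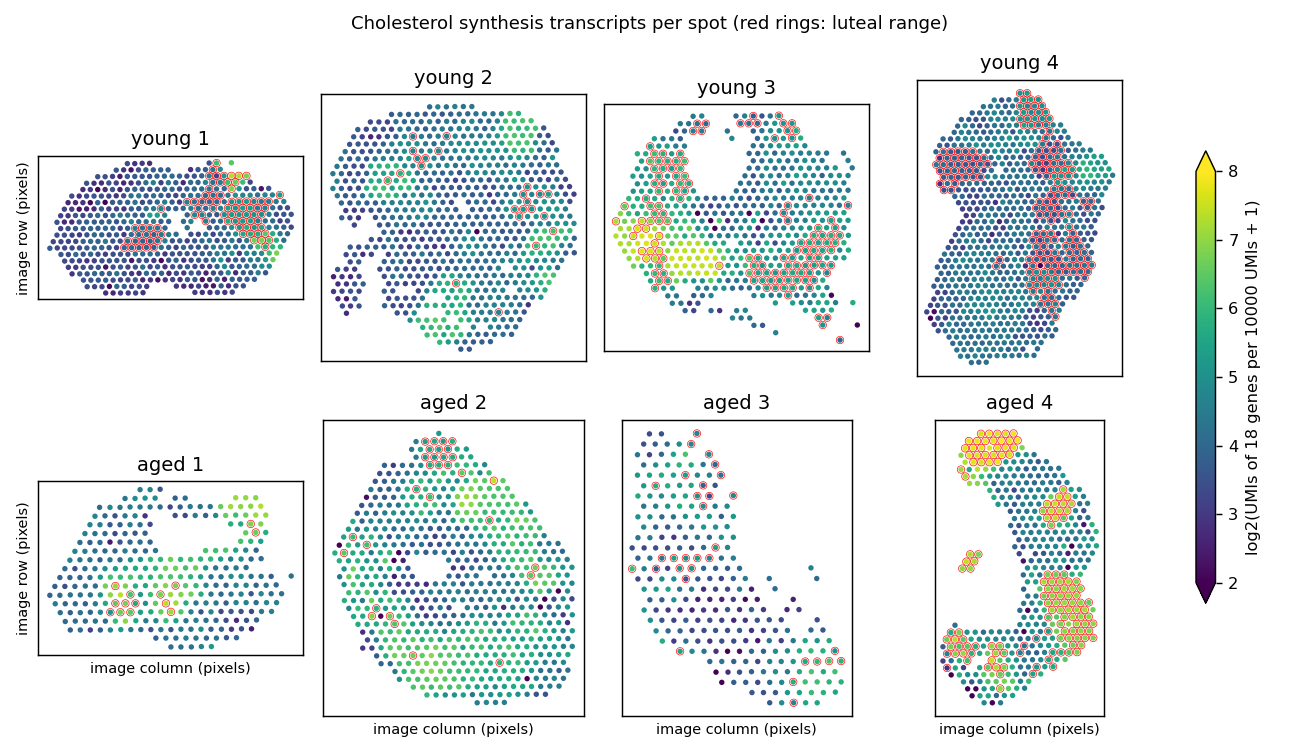
Spots of the 8 sections, each at its place in the image (image column and row in pixels) and coloured by log2 of the UMIs of the 18 synthesis genes per 10000 UMIs plus 1; red rings mark the luteal range. In aged section 4, 95.1% of the highest 10% of spots were in the luteal range, and 12.3% in aged section 2.

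Luteal-range spots were higher in most members. By edgeR's quasi-likelihood test over 13780 genes, 19 of 29 members were higher in the range (13.6% of genes tested were) and 1, Abca1, was lower (16.1% were). The members' median log2 fold change was 0.61 and that of all genes −0.04. Above 0 were 27 of 29 members (46.2% of genes). Without area 3 the counts were 13 higher (10.5% of genes) and 1 lower, and without young section 1 there were 11 higher (10.6%). With a range of the top 10% of spots 10 members were higher (9.58%), and with the top 25% 25 were (18.1%). Scaled by library size alone 12 were higher (7.54%), a scaling that moved the median of all genes to −0.23 and the share of higher genes among all calls from 45.8 to 20.7%. Spots of the luteal range were deeper, with medians of 11303 to 38453 UMIs against 8580 to 27741 outside it, higher inside in 7 of 7 sections. Summed granulosa, stroma, oocyte, surface, oviduct, muscle and adipocyte markers were lower inside it in 7 of 7 sections. Macrophage markers were higher inside in 5 of 7, at 697 to 1242 CPM against 363 to 1536 CPM outside. The part of depth or of these other cells in the values was not tested. Of the 6 markers in the luteal score, Lhcgr, the LH receptor, was higher inside in only 4 of 7 sections (log2 fold change 0.14 ± 0.27). Akr1c18, Ptgfr, Sfrp4, Prlr and Parm1 were at 2.29, 2.06, 1.88, 1.45 and 1.13. The spots were chosen by these markers, so such values show only which of them weigh most in the range.

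By role, 4 of 7 isoprenoid enzymes and 9 of 11 sterol enzymes were higher in the luteal range, with medians of 0.62 and 0.70. Dhcr7 had the largest difference of all members. In young sections 1 to 4 it was at 398, 480, 650 and 204 CPM inside the range and at 92.5, 207, 507 and 79.2 CPM outside. In aged sections 2 to 4 it was at 888, 270 and 585 CPM inside and 640, 132 and 206 CPM outside. It was higher inside in 7 of 7 sections (log2 fold change 1.32 ± 0.20, adjusted p 0.000514 in edgeR), and 1.51 without area 3. Fdps was likewise higher in every section, at 674, 676, 2009 and 533 CPM inside against 245, 537, 1605 and 384 CPM outside in young, and 1270, 618 and 2684 against 1171, 372 and 818 CPM in aged sections 2 to 4 (log2 fold change 0.90 ± 0.21, adjusted p 0.00588).

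Idi1 and Msmo1 differed by similar amounts but not in every section. Idi1 was at 156, 163, 244 and 37.9 CPM inside and 49.7, 93.3, 217 and 58.4 CPM outside in young sections, and at 188, 96.4 and 568 against 145, 46.3 and 141 CPM in aged sections 2 to 4 (log2 fold change 0.95 ± 0.27, adjusted p 0.0184 in edgeR, and 0.0547 without area 3). Msmo1 was at 490, 414, 768 and 188 CPM inside and 183, 264, 526 and 193 CPM outside in young sections, and at 636, 230 and 1331 against 496, 153 and 425 CPM in aged ones (0.91 ± 0.20, adjusted p 0.00438 in edgeR). The exception in both was young section 4. There 14 of 18 synthesis genes were lower inside the range, Hmgcs1 with 226 CPM inside and 313 CPM outside among them, while Dhcr7, Fdps, Tm7sf2 and Ebp were higher. In the other 6 sections 14 to 18 synthesis genes were higher inside.

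Hsd17b7 and Mvk were not called. Hsd17b7 was at 380, 148, 343 and 97.6 CPM inside and 121, 229, 402 and 127 CPM outside in young sections, and at 77.2, 658 and 3417 against 49.2, 521 and 700 CPM in aged sections 2 to 4. It was higher inside in 4 of 7 sections (log2 fold change 0.68 ± 0.32, adjusted p 0.129 in edgeR). With the top 25% of spots it passed (log2 fold change 1.33, adjusted p 0.0031 in edgeR). Mvk was higher inside in 2 of 7 sections, with a log2 fold change of −0.03 ± 0.20.

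**Figure D4:**
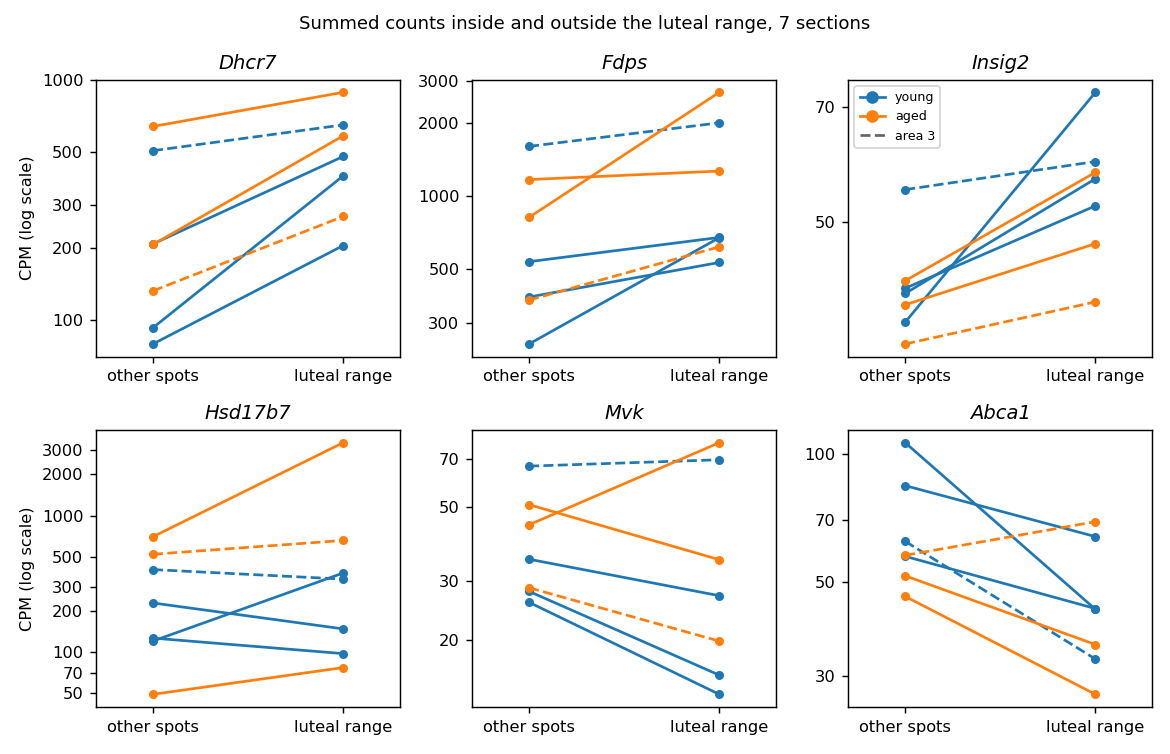
CPM of summed counts outside and inside the luteal range for 6 members in 7 sections (log scale; lines join the values of a section; blue young, orange aged, dashed area 3). Dhcr7, Fdps and Insig2 were higher inside in 7 of 7 sections, and Abca1 was lower inside in 6 of 7.

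Among the regulators, Insig2, Scap and Srebf2 were higher in the luteal range, Srebf2 no longer so without area 3 (adjusted p 0.0361, and 0.135 without area 3, in edgeR). Insig2 was at 73.1, 52.4, 59.7 and 56.8 CPM inside and 37.3, 41.2, 55.0 and 40.6 CPM outside in young sections, and at 46.9, 39.6 and 57.8 against 39.2, 35.0 and 42.1 CPM in aged sections 2 to 4. All 7 sections were higher inside (log2 fold change 0.61 ± 0.13, adjusted p 0.00363 in edgeR, and 0.71 without area 3). Insig1 was at 70.7, 67.2, 135 and 28.3 CPM inside and 44.6, 53.1, 124 and 48.4 CPM outside in young sections, and at 115, 84.1 and 261 against 90.3, 71.2 and 89.0 CPM in aged ones. It was lower inside in young section 4 alone (0.54 ± 0.21, adjusted p 0.0718 in edgeR). So of this pair Insig1 spread with the enzymes between sections, and Insig2 was the one called between luteal-range and other spots. The difference between their responses was not tested.

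Of the genes of transport, storage and release, Stard4, Lipe and Npc1 were higher in the luteal range and Abca1 was lower. Npc1 was only just called and was higher inside in 4 of 7 sections (log2 fold change 0.33 ± 0.12, adjusted p 0.0485 in edgeR). Stard4 was at 32.9, 33.0, 65.4 and 21.8 CPM inside and 15.0, 28.3, 58.2 and 20.0 CPM outside in young sections, and at 57.5, 51.9 and 121 against 34.6, 20.2 and 35.0 CPM in aged sections 2 to 4, higher in 7 of 7 (log2 fold change 0.94 ± 0.21, adjusted p 0.00452 in edgeR). Lipe was at 27.9, 21.7, 36.9 and 31.5 CPM inside and 14.1, 17.6, 30.1 and 19.0 CPM outside in young sections, and at 16.6, 14.8 and 31.8 against 23.3, 24.4 and 22.9 CPM in aged sections 2 to 4. It was higher inside in every young section and in 1 of 3 aged ones (0.57 ± 0.19, adjusted p 0.0335 in edgeR). Abca1 was at 43.1, 43.3, 33.0 and 63.9 CPM inside and 106, 57.4, 62.3 and 84.1 CPM outside in young sections, and at 27.2, 69.2 and 35.7 against 46.2, 57.7 and 51.7 CPM in aged ones. It was lower inside in all but aged section 3 (−0.44 ± 0.13, adjusted p 0.0255 in edgeR). Soat1, Npc2 and Lipa were not called.

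Of the 44 other pathway genes, 16 were higher in the luteal range and 0 were lower, against the 13.6 and 16.1% of all genes given above. The largest differences were in Star (log2 fold change 1.68 ± 0.26), Stard5, a cholesterol carrier (1.45 ± 0.23), Scarb1, the receptor for high-density lipoprotein (1.27 ± 0.20), Fdx1, the electron donor of Cyp11a1 (1.17 ± 0.19), and Cyp11a1 itself (1.11 ± 0.22). Their adjusted p ran from 0.00056 to 0.00243 (edgeR). Genes of uptake, synthesis and use were thus high in the same range of spots.

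In the other 9 ranges the synthesis genes were lower than in the other spots, with 13 to 18 of the 18 called lower in each. Counts of members lower than in the other spots were 25 in the stroma range (12.3% of genes tested were lower), 23 in granulosa (18.4%), 21 in theca (10.4%), 26 in smooth muscle (13.1%), 22 in surface epithelium (7.12%), 22 in oviduct epithelium (9.53%), 21 in oocyte (8.28%), 15 in macrophage (4.33%) and 15 in adipocyte (4.55%) ranges. The median log2 fold change of the 18 synthesis genes was −1.06 in stroma, −1.01 in granulosa, −0.99 in theca, −0.95 in muscle and −0.76 in macrophage ranges. All 18 were below 0 in each of the 9 ranges, and remained so when scaled by library size alone. The adipocyte score was above 0 in 553 spots, fewer than 15%, so that range is all spots with any of its UMIs. Outside aged section 3 most of these UMIs were of the single marker Plin1, at 13.7 of 13.8 CPM in young section 4. Only 29 of the spots lay in aged section 3, where Adipoq was highest. Values of this range therefore do not stand for adipocytes. Scaled by library size alone, the share of higher genes among all calls went from 44.7 to 69.3% in stroma, from 45.3 to 68.2% in muscle, from 49.6 to 68.4% in oviduct, from 37.8 to 63.3% in theca, from 50.4 to 62.3% in surface and from 32.6 to 47.2% in adipocyte ranges.

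Since the other spots of each such comparison include the luteal range, it was repeated, as a choice made after seeing the data, with luteal-range spots left out of both sides. Members lower were then 23 in granulosa (17.5% of genes), 23 in stroma (9.32%), 21 in muscle (8.05%), 21 in oviduct (7.33%), 19 in surface (5.17%), 16 in theca (4.77%), 13 in macrophage (4.67%), 12 in oocyte (3.01%) and 10 in adipocyte ranges (1.46%). In these ranges the lower level of synthesis genes was thus measured against other spots outside the luteal range too. All 18 were below 0 in each of the 9. The luteal range is a cut of a continuous score, and 1162 spots lay within 10% of the cut. Spots with luteal markers therefore remained in these comparisons. In the macrophage range, compared with all other spots as at first, the count rested on few sections: 6 members were lower without young section 3 (2.7% of genes), which is the one section of area 3 in that fit, and 8 without aged section 1 (2.91%).

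**Figure D5:**
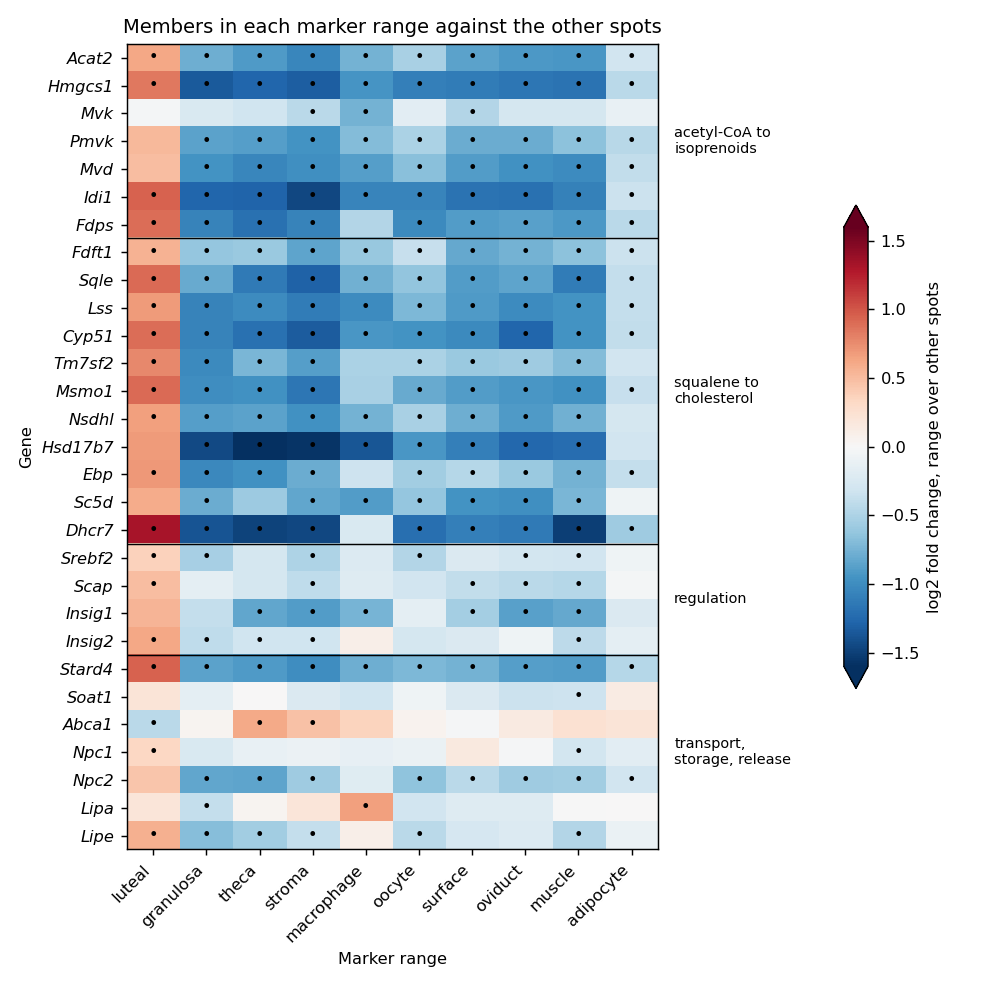
Log2 fold change of each of the 29 members (rows, by role) in the spots of each of 10 marker ranges over the other spots of the same sections (columns); dots mark an adjusted p under 0.05 in edgeR. Synthesis genes were above 0 in the luteal range, Mvk apart, and below 0 in the other 9 ranges, while Abca1 was lower in the luteal range and higher in theca and stroma.

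Abca1 and Lipa departed from the synthesis genes. Abca1 was higher in the theca range (log2 fold change 0.60 ± 0.15, adjusted p 0.0106 in edgeR; 6.34% of genes were higher) and in stroma (0.47 ± 0.13, adjusted p 0.0188; 9.95%). Without area 3, 0 members were higher in stroma (8.71% of genes). Lipa was higher in the macrophage range (0.65 ± 0.08, adjusted p 0.00019 in edgeR; 4.77% of genes were higher). In that range 5 of the 44 other pathway genes were higher too: Apoe, the apolipoprotein that accepts exported cholesterol (1.49 ± 0.11), Abcg1, an exporter (1.24 ± 0.18), Nr1h3, the sterol receptor LXR alpha (0.88 ± 0.14), Plin2, which coats lipid droplets (0.62 ± 0.08), and Mylip, a ubiquitin ligase (0.61 ± 0.13). Abca1 itself was at 0.35 ± 0.12 there (adjusted p 0.0789). Both Insig genes were lower in the stroma, theca and muscle ranges: Insig1 fell by 0.90 in stroma, 0.84 in theca and 0.82 in muscle ranges, and Insig2 by 0.31, 0.32 and 0.42 (log2, all called in edgeR).

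Age was then compared inside and outside the luteal range. Inside it, over 4 young and 3 aged sections, 0 of 11379 genes were called (0%), and 3 members, Hsd17b7, Stard4 and Cyp51, had an unadjusted p under 0.05 (6.51% of genes had). The members' median was 0.79 inside and 0.27 outside, where 0 of 14312 genes were called (0%) and 1 member, Abca1, had an unadjusted p under 0.05 (1.45% of genes). Hsd17b7 had log2 fold changes of 2.48 ± 0.92 inside and 0.90 ± 0.70 outside, and Stard4 of 1.07 ± 0.39 and 0.09 ± 0.43. The difference itself, the interaction of age and range, was called for 0 of 29 members and 2 of 13780 genes (0.0145%). Stard4 was the 1 member with an unadjusted p under 0.05 (7.97% of genes had), at 0.0269 (0.539 adjusted, edgeR). Without aged section 4 the members' median inside the range was 0.015, so its size rests on that section. Without aged section 2, 58 genes were called inside the range. Outside the range the median was −0.05 without aged section 2. With area 3 left out, also chosen after seeing the data, which leaves 3 young and 2 aged sections inside the range, the median was 1.61 inside, with 23 of 29 members at an unadjusted p under 0.05 (6.7% of genes), and 0.90 outside, with 17 of 29 (6.93%). No gene was called on either side, and the interaction called 4 genes (0.0298%) and 0 members.

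Across the spots of a section, the synthesis genes went together. Over 153 pairs of the 18 genes, the median Spearman correlation of their log-scaled levels, taken as the median over 8 sections, was 0.34, with the highest for Hmgcs1 and Fdps at 0.63 and the lowest pair at 0.13. Against the mean level of the other 17, Fdps stood at 0.77, Hmgcs1 at 0.68, Msmo1 at 0.64, Dhcr7 and Idi1 at 0.62 and Mvk at 0.25. Among the other roles Npc2 stood at 0.54, Insig1 at 0.46, Stard4 at 0.41, Insig2 at 0.18, Npc1 at 0.12, Lipa at 0.08 and Abca1 at 0.00. Spots of a section share a library, neighbouring tissue and a range of depths, and low counts pull such correlations towards 0. The synthesis level also went with UMIs per spot, at 0.21 to 0.68 within sections.

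The non-members most like the synthesis genes across spots were Cyp11a1 (median over sections 0.70), Scarb1 (0.66), Sfrp4, a secreted Wnt antagonist (0.65), Lipg, endothelial lipase (0.64), Aplp2 (0.64), Star (0.64), Ptgfr, the prostaglandin F2 alpha receptor (0.64), Idh1, a source of NADPH (0.63), Scd2 (0.61) and Epdr1 (0.60). Over 8986 non-member genes the median was 0.07, with 0.24 at the 95th percentile. Of these 10, Sfrp4 and Ptgfr are on the luteal marker list. Young section 4 was the exception in most of them: there Cyp11a1 was at 0.06, Scarb1 at −0.09 and Star at 0.14. The synthesis level went with the luteal score at 0.53 to 0.81 in 7 sections and at 0.17 in young section 4. With the macrophage score it ran from −0.27 to 0.28, above 0 in young sections 1 and 2 and aged sections 2 and 3. With the granulosa score it ran from −0.28 to 0.09, above 0 in young sections 3 and 4 and aged sections 1 and 4. Across all spots, then, these 2 scores did not go against synthesis in every section, unlike the sums of their ranges.

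Within the luteal range, single markers differed in how they went with synthesis. Across its spots in 7 sections, a comparison added after the other values were seen, the synthesis level correlated with Lhcgr, the LH receptor, at 0.05 to 0.55 and above 0 in 7 of 7 sections. With Akr1c18, the enzyme that inactivates progesterone as a corpus luteum regresses, it correlated at −0.56 to −0.12 in 6 sections and at 0.40 in young section 4. Sfrp4 was negative in 7 of 7 sections (median −0.38), while Ptgfr (0.19), Prlr (0.16) and Parm1 (0.05) were positive in 5 of 7. For Hsd17b7 alone the medians were 0.54 with Lhcgr and −0.42 with Akr1c18. Over all spots both markers had positive medians with the synthesis level (0.33 each). The spots were chosen by a score that holds both markers, which by itself lowers their correlation with each other, and that effect on these values was not tested.

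The highest 10% of spots by synthesis level lay in the luteal range for 66.7, 5.48, 24.1 and 39.0% in young sections 1 to 4 and 26.7, 12.3, 23.1 and 95.1% in aged sections 1 to 4. Of all spots, 15.4, 3.15, 24.3 and 23.4% of young and 4.68, 4.62, 12.2 and 33.7% of aged sections were in that range. Aged section 4 had nearly all of its highest spots there, and young section 3 no larger a share than of all its spots. In the stroma range lay 0% of the highest spots in 7 of 8 sections and 1.54% in aged section 2.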

How the data were processed

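Counts in the deposited tables are UMIs for each gene in each spot, whole and unscaled, made with Space Ranger 1.2.1 on mm10, per the submitters' processing notes; strand use and annotation were not stated in them. Deposited positions (other units) placed the spots. Image scale factors were not used. Sections were 10 µm thick and permeabilised for 18 minutes, per the labels. Of 4263 spots that lay over tissue, 72 lacked counts. The labelled side, cut at the widest gap within the central 60% of pixels, set each spot's age; k-means moved 11 spots. CPM use section or range totals and log2 fold changes use TMM, so their ratios differ.

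Sums were tested over all genes with edgeR 4.0.16 (R 4.3.3; quasi-likelihood, filterByExpr, Benjamini-Hochberg, threshold 0.05); DESeq2 1.42.0 was an alternative. The fits were also run on simulated counts with a smaller spread between sections than these data have. That run therefore does not show how often the fits miss or wrongly call genes here. A range needed at least 15 spots inside and outside in 4 sections or more. Sections of an area share a library, which pairs them; the correlations of their deviations were 0.00358, 0.165, −0.224 and 0.208. Other alternatives were scaling, filter, split, the top percent, a capture area block, and leaving out each section or area 3.

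Members and lists were chosen with earlier results of these data known. Values per section are given for the 2 members of each role with the smallest p between ages and the 2 with the largest luteal difference, for both Insig genes, and for other pathway genes with the smallest p (Scd2 by its fold change only), of which 1 is not reported here; Hmgcs1 was added with its promoter after its values were seen. The most alike genes are the top 10 of those with a UMI in 20% of spots. Exons of Fdft1, Cyp51, Hmgcs1, Lss, Npc1 and Lipe overlap genes of the opposite strand, those of Tm7sf2 overlap Vps51, and Acat2 has a close copy in Acat3, so these counts are uncertain. The p-values measure the spread between these sections, each from 1 animal.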

Additional observations from a re-analysis of the deposited data

Results flagged for a closer look

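In 7 members young section 3 lay far above the other 3 young sections. The gap from it to the next young section, as a share of the range of the 4 young sections' CPM, was 0.831 for Acat2, 0.855 for Fdps, 0.953 for Lss, 0.977 for Tm7sf2, 0.935 for Sc5d, 0.879 for Insig1 and 0.944 for Npc1. Of 58 groups of 4 tested (29 members at each age), these 7 passed Dixon's 95% critical value. For a single group, chance passes about 1 in 20. All 7 fall on young section 3, and the groups share the same sections. They are therefore not separate tests, and their number cannot be set against that rate. Lss was at 200 CPM in young section 3 and at 30.4 to 38.4 CPM in the other young sections, and Tm7sf2 at 146 CPM against 29.3 to 32.0 CPM. Young section 3 also had the highest summed luteal markers of its age (13908 CPM, with 12716 CPM in young section 4), and it lay in the capture area whose oocyte transcripts ran against the other 3. Their part in these values was not tested.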

How the results depend on the processing

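Between ages, 459 of 464 values of single members under the alternatives kept their direction and their side of the threshold, and 5 changed sign: Insig2 was at 0.092 without area 3 and ranged from −0.18 to 0.040 with each section left out, Npc1 from −0.036 to 0.21 and Lipa from −0.16 to 0.27. DESeq2 called 6 genes. The replicate block on capture area called 0 genes, with a members' median of 0.71, and changed no other call. With each section left out, the members' median between ages ran from 0.30 to 1.13 over whole sections, from 0.015 to 1.22 inside the luteal range (0 to 58 genes called) and from −0.05 to 0.68 outside it. Without area 3 it was 1.61 inside the range, and 4 genes were called for the interaction.

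In the luteal range 301 of 377 values of single members were unchanged in call, 50 lost it (11 genes), 18 gained it (6 genes) and 8 changed sign, all of Mvk (0.086, 0.34 and 0.28 with the top 10%, the top 25% and the top 15% of each section, and −0.25 to 0.10 with each section left out). Members higher numbered 10 with the top 10%, where 0 were lower, 12 by library size alone, and 11 to 21 with each section left out, with 0 to 1 lower. In the macrophage range 2 members were higher with the top 10%, the top 25% and the top 15% of each section. The number was also 2 with luteal-range spots left out, and 1 to 2 with each section left out. Lower were 6 without area 3 and 6 to 17 with each section left out. In the muscle range 1 was higher with the top 25%, the top 15% of each section and library size alone. In stroma 2 were higher by library size alone, 0 without area 3 and 0 to 2 with each section left out. With luteal-range spots left out, 12 members were lower in the oocyte range and 1 was higher in the surface range. Outside these ranges counts stayed within 1.5 times. The cause of these changes was not tested. The adipocyte range is the same at 15 and 25%, since its score is 0 elsewhere. Where a left-out section leaves fewer sections in a range, the fit has fewer degrees of freedom. Depth limits the smallest section, aged section 3, to 64 UMIs of Lipe and 69 of Stard4.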
